A study of Arabidopsis thaliana with 10 samples.

Results

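Salt and mannitol were compared at 12 h on the long noncoding RNAs (lncRNAs) of Arabidopsis thaliana seedlings, with 1 library from NaCl-treated seedlings set against 1 library from mannitol-treated seedlings of the same age and time. The 2 libraries were chosen by their labels, out of 10 samples in the series, and each of the 1362 lncRNA loci in the deposited tables gave 1 value per library. Of these loci, 814 had at least 1 read in either library. Both groups were wild-type Col-0 seedlings, 12 days old and grown on agar plates with sucrose. The salt-treated seedlings were held in 200 mM NaCl for 12 h, and the seedlings they are set against were held in 300 mM mannitol for 12 h, the treatment that the labels call drought. The sources used here do not say how many seedlings were pooled, and they do not give the 2 solutions as matched in osmotic strength. A 3 h library of each treatment was used for the same comparison at the earlier time. The RNA had been stripped of poly(A)+ RNA and of ribosomal RNA and made into strand-specific cDNA, so that a transcript and its antisense partner were counted apart. Whole seedlings were used, so fewer cells of a type and less RNA per cell cannot be told apart.

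High NaCl stresses a plant in 2 ways at once. It lowers the water potential around the root, as any solute does, and it loads the tissue with sodium and chloride, which plants meet with sodium export, vacuolar storage and calcium signalling. Mannitol is a sugar alcohol that most plant cells take up slowly and that carries no charge, and it is widely used to impose the osmotic component without the ions. A direct contrast of salt with mannitol at the same time compares them without an untreated control. Many lncRNAs in plants lie antisense to coding genes, between genes, or in transposons and repeats, and for most of them no function is known. No coding gene is listed in the tables, so neither treatment could be checked here against salt or drought marker genes.

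Salt 12 h had the fewest mapped reads of the 9 seedling libraries, 17589634, against 21023041 in the mannitol 12 h library and 25189924 to 37046391 in the other 7. These totals were read back from the deposited RPKM values (reads corrected for exon length and for sequencing depth), which came out as whole reads at every locus. One read on a locus of 1000 nt stood for 0.0569 RPKM in salt and 0.0476 RPKM in mannitol. Few of those reads came from lncRNAs. Salt 12 h held 10399 lncRNA reads, or 591 reads per 1000000 mapped reads (RPM), and mannitol 12 h held 16419, or 781 RPM, so the lncRNA share was 0.757 times as large in salt (exact binomial 95% interval 0.739 to 0.776). A single locus, AT1G15405, gave 24.5% of the lncRNA reads in salt and 33.4% in mannitol. Without it the salt to mannitol ratio of lncRNA reads was 0.858 (0.833 to 0.883). Intervals here and below cover counting error only, since there was 1 library per treatment, no molecular identifiers and no biological replicate; the spread between repeated treatments is unknown, and no test between the treatments was possible.

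At 12 h, 36 loci were at least 2-fold higher and 63 at least 2-fold lower in salt than in mannitol on the log2(RPKM + 1) scale, together 7.27% of the 1362 loci, with 2.64% higher and 4.63% lower. Higher loci thus made up 36.4% of those past 2-fold, and 30.9% to 43.2% under the alternatives given below. No interval is given for this share, because the loci come from the same pair of libraries and are not independent. The loci read in both libraries did not lean the same way, since the median of 432 log2 ratios of reads per mapped read was 0.12, with quartiles at -1.06 and 0.86. Among 162 loci with 5 or more reads in each library the median was 0.09. The excess of lower loci was therefore seen among loci past 2-fold and in the summed reads, and not in the median of loci read in both. Those medians leave out 158 loci read in salt alone and 224 read in mannitol alone. Over the 814 loci with a read in either library, the median log2(RPKM + 1) difference was -0.05. Only 234 loci reached 1 RPKM in either library, and 42.3% of these were past 2-fold. Most calls rested on few reads: 29 of the 36 higher and 41 of the 63 lower loci had under 20 reads over the 2 libraries. The exact interval of the read ratio excluded 1 for 29 of the higher loci (2.13% of all loci) and 49 of the lower loci (3.6%). Past 4-fold there were 3 higher and 6 lower loci.

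**Figure D1:**
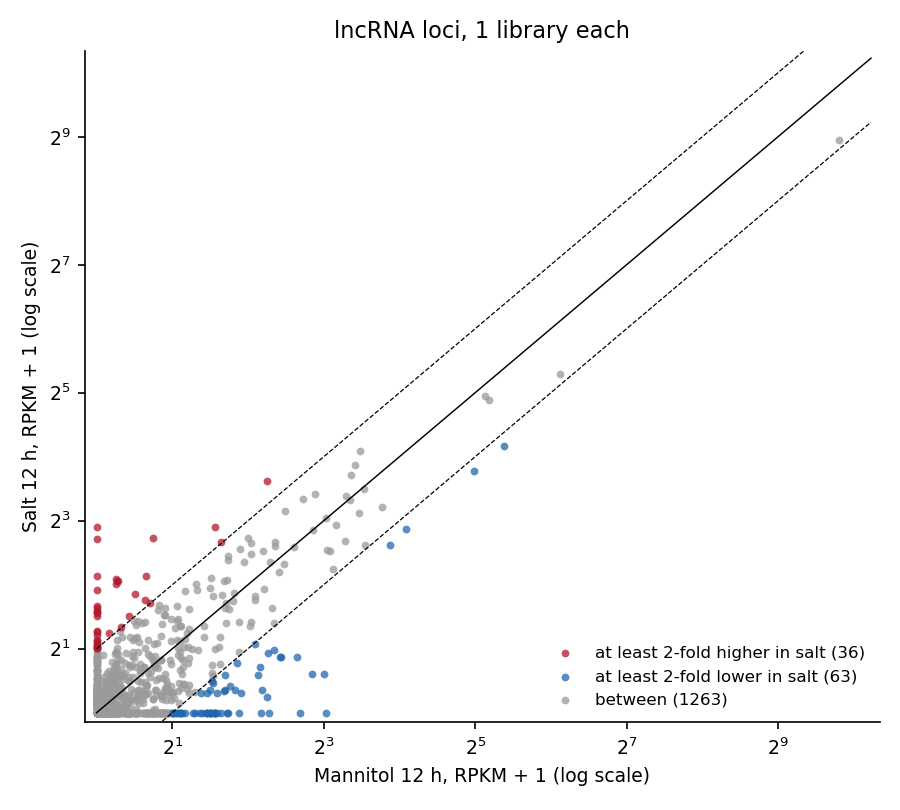
RPKM + 1 of 1362 lncRNA loci in salt 12 h (vertical) and mannitol 12 h (horizontal), both on log2 axes, 1 library each; dashed lines mark 2-fold. The 36 higher loci lie mostly near the left edge, where mannitol had no or few reads, and the 63 lower loci lie mostly near the bottom. The 5 loci with most reads lie below the diagonal, but other well-read loci lie above it.

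For scale, the same count of loci past 2-fold was 7.2% between salt and heat at 12 h, 7.34% between salt and cold, 8.66% between mannitol and heat and 8.88% between mannitol and cold. Salt and mannitol, the treatments that share an osmotic component, thus differed at about as large a share of loci as salt and heat or salt and cold. These comparisons share libraries with one another, and differences in depth between libraries enter each of them.

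Among the loci higher in salt, level2_lnc-11 stood out by its reads. It had 28 reads (5.55 RPKM) in salt 12 h, against 0 reads in mannitol 12 h and 0 in each of the other 7 libraries. With 3 reads as the limit that a count of 0 allows in a library, and its 28 reads taken as exact, it was at least 11.2-fold higher in salt. Bounds of this kind, here and below, leave out counting error in the nonzero count. They are therefore less strict than the exact intervals given for other loci. This locus is a single 287-nt exon on the plus strand of chromosome 1 (chr1:2196532-2196818, TAIR10), between genes and 536 bp from MAPKKK13, a gene of the kinase family at the head of MAP kinase cascades. It is printed here because no other locus had so many reads in salt with none in mannitol, together with level2_lnc-148, the higher locus that lies antisense to coding exons and shares its gene with a second higher locus. Both are shown 5′ to 3′ as transcribed, from the RefSeq TAIR10.1 sequence, and capitals mark bases that lie over exons of the gene on the opposite strand.
level2_lnc-11: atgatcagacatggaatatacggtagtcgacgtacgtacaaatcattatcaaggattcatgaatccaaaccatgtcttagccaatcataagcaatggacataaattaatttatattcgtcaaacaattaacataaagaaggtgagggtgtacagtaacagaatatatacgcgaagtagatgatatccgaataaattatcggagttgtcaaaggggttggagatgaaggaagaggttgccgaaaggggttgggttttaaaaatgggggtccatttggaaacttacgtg
level2_lnc-148: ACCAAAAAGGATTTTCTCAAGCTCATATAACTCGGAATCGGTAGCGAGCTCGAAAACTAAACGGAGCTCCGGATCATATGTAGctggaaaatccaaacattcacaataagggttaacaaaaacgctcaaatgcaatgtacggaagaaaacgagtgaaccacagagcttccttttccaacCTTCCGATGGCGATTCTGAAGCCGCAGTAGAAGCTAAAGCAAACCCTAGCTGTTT

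The locus level2_lnc-148 (chr1:27625431-27625664, minus strand) had 13 reads in salt and 1 in mannitol, a ratio of 15.5 (2.33 to 660). Of its 234 nt, 138 lie over exons of AT1G73470, an uncharacterized gene. A second transcript antisense to the same gene, level2_lnc-150 (chr1:27627161-27627579), was named after its values were seen. It had 25 reads in salt and 5 in mannitol, a ratio of 5.98 (2.25 to 20.0). Both of these loci antisense to AT1G73470 were therefore higher in salt at 12 h. At 3 h they parted, with 2 reads in salt and 1 in mannitol for level2_lnc-148, and 0 reads in salt and 16 in mannitol for level2_lnc-150.

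Other loci named by the size rule also had reads in salt at 12 h and none in mannitol. The intergenic level2_lnc-127 had 14 reads in salt, 0 in mannitol and 0 in every other library, at least 5.58-fold higher. At 2058 bp from TTL4, a gene of the tetratricopeptide thioredoxin-like family, level2_lnc-379 had 10 reads in salt and 0 in mannitol (at least 3.98-fold higher), although at 3 h it had 0 reads in salt and 3 in mannitol. For level2_lnc-49 the reads were 12 in salt and 0 in mannitol (at least 4.78-fold higher), and 1 in salt and 4 in mannitol at 3 h. Antisense to SFR6, which encodes a Mediator subunit needed for cold-induced gene expression and freezing tolerance, level2_lnc-402 had 8 reads in salt and 0 in mannitol (at least 3.19-fold higher). That locus was not particular to salt, since heat 12 h held 9 reads. The same counts, 8 in salt and 0 in mannitol, were found for level2_lnc-227, which lies opposite the carbonic anhydrase gene ACA2.

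Some higher loci lie on the strand of a coding gene. The largest positive difference, 2.90 on the log2 scale, was that of level1_lnc-185, with 11 reads in salt and 0 in mannitol (at least 4.38-fold higher), but its exons total 97 nt, shorter than a 100-nt read, and lie within the same-strand gene AT3G52526. It also has 2 copies in the genome and had 9 reads in cold 12 h. For level1_lnc-323, which overlaps the receptor-like protein gene RLP56 on its own strand, salt had 21 reads and mannitol 3, a ratio of 8.37 (2.50 to 43.8). It was also higher in salt at 3 h, with 11 reads in salt and 1 in mannitol. Reads of such lncRNAs and of their same-strand coding gene cannot be told apart here. Of the 36 higher loci, 7 overlap an exon of a coding gene on their own strand, as do 10 of the 63 lower loci.

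The other higher loci taken by the rule of largest difference were level1_lnc-113, with 14 reads in salt and 1 in mannitol (ratio 16.7, 2.55 to 708), level2_lnc-498, with 12 in salt and 1 in mannitol (14.3, 2.12 to 613), and level1_lnc-26, a transposon-class locus with 13 in salt and 1 in mannitol (15.5, 2.33 to 660). The last has 3 near-identical copies in the genome and had 12 reads in heat 12 h as well. More deeply read, and named after its values were seen, was level1_lnc-335, which overlaps the pseudogene AT5G55896 on its own strand. It had 71 reads (11.3 RPKM) in salt and 28 (3.74 RPKM) in mannitol, a ratio of 3.03 (1.93 to 4.88). At 3 h the ratio was 2.02 (1.15 to 3.72), with 44 reads in salt and 18 in mannitol, so this locus was higher in salt at both times.

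On the lower side the clearest loci were antisense transcripts that had reads in mannitol and none in salt. Opposite TRX2, a gene of the cytosolic thioredoxins that reduce disulfides in target proteins, level1_lnc-306 had 0 reads in salt and 47 (7.17 RPKM) in mannitol, at least 13.1-fold lower in salt. It had 0 reads in both 3 h libraries of these treatments, and 5 reads was the most in any other library. Opposite BRCA2(IV), a homologue of the recombination protein BRCA2, level2_lnc-392 (chr4:10057-10258, plus strand) had 0 reads in salt and 23 in mannitol, at least 6.41-fold lower, and again 0 in both 3 h libraries. Its longest exon has 2 near-identical copies in the genome, so some of its reads could stem from the other copy. The sequence of level2_lnc-392 is shown 5′ to 3′ as transcribed, because its fall is among the largest, with capitals over exons of the opposite gene, which cover 117 nt.
level2_lnc-392: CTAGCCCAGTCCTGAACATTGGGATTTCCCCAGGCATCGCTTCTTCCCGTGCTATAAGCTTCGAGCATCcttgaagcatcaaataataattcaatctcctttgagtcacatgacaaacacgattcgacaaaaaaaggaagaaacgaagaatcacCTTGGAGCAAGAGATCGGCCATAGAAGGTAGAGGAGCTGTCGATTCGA

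Further antisense loci were lower in salt. The locus level2_lnc-245, opposite INT3 of the inositol transporter family, had 0 reads in salt and 12 in mannitol (at least 3.35-fold lower), but its highest value by far was 231 reads in heat 12 h. Likewise level1_lnc-90, opposite AT2G20360, had 0 reads in salt, 11 in mannitol (at least 3.07-fold lower) and 0 in every other library. A pair of annotated antisense loci, named after their values were seen, were better covered. AT1G76892, opposite the trihelix transcription factor gene GT2, had 24 reads in salt and 119 in mannitol, 4.15-fold lower (2.66 to 6.73), and AT5G38212, opposite the kinase gene AT5G38210, had 10 in salt and 89 in mannitol, 7.45-fold lower (3.87 to 16.1). AT5G38212 was also lower at 3 h, with 5 reads in salt and 31 in mannitol, whereas AT1G76892 had 47 in salt and 50 in mannitol at 3 h.

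Lower loci of other classes included level1_lnc-324, a transposon-class locus opposite the uncharacterized gene AT5G49440, with 3 reads in salt and 48 in mannitol, 13.4-fold lower (4.31 to 67.2). The intergenic level2_lnc-362, 2842 bp from the sucrose exporter gene SWEET11, had 0 reads in salt and 16 in mannitol (at least 4.46-fold lower), and 0 in salt and 4 in mannitol at 3 h. For level1_lnc-86 salt had 0 and mannitol 12 (at least 3.35-fold lower), level1_lnc-61 had 1 in salt and 15 in mannitol (12.6-fold lower, 1.93 to 528), and level1_lnc-285 had 3 in salt and 23 in mannitol (6.41-fold lower, 1.94 to 33.4). On the strand of a coding gene were level2_lnc-581 (AT5G38865), with 0 in salt and 10 in mannitol (at least 2.79-fold lower), level1_lnc-252 (the laccase gene LAC13), with 1 in salt and 24 in mannitol (20.1-fold lower, 3.27 to 826), and level1_lnc-89 (the myosin gene XIG), with 2 in salt and 28 in mannitol (11.7-fold lower, 2.95 to 101).

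**Figure D2:**
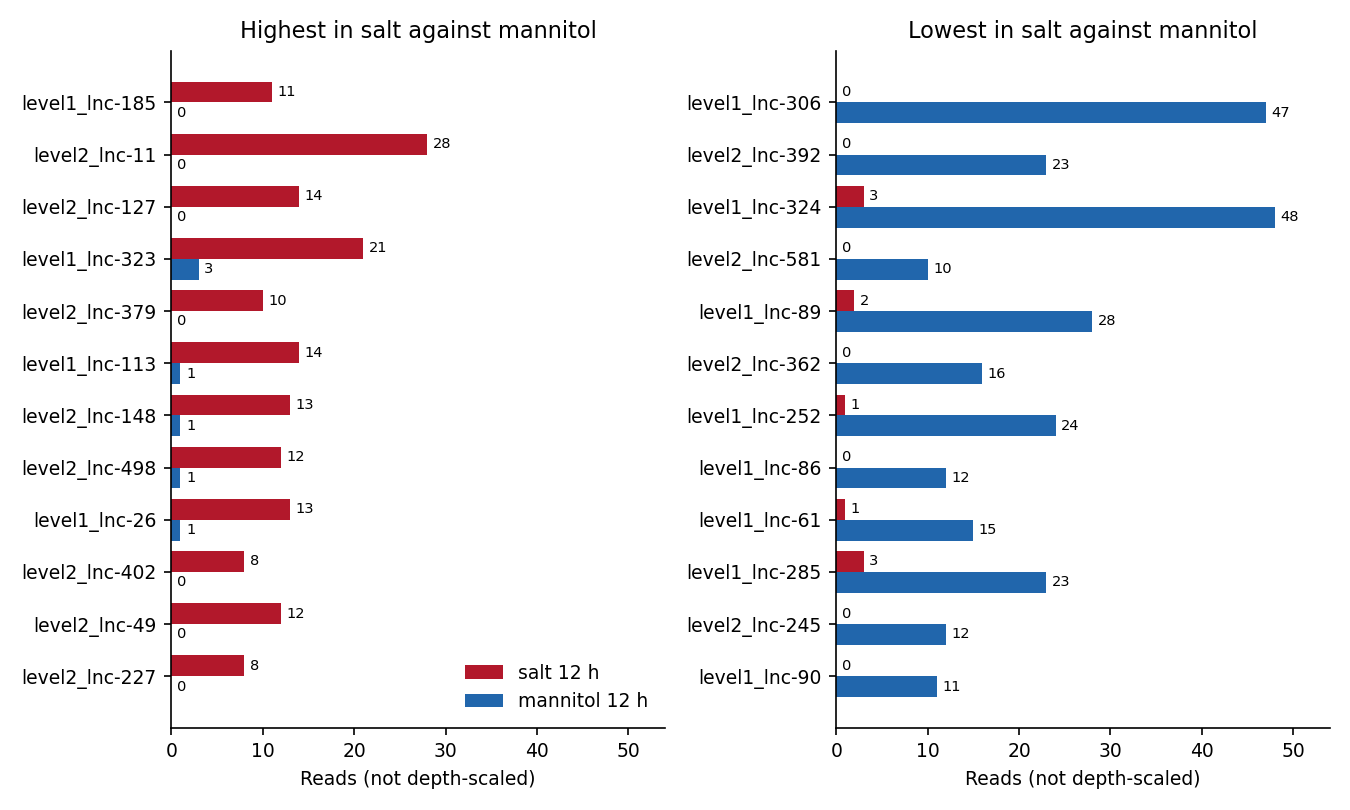
Reads in salt 12 h (upper bar of each pair) and mannitol 12 h (lower bar) of the 12 loci furthest up and the 12 furthest down in salt, ordered by the log2(RPKM + 1) difference; 1 library per treatment, reads not scaled to depth. The higher loci reach 28 reads in salt and at most 3 in mannitol, and the lower loci reach 48 reads in mannitol and at most 3 in salt.

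The 5 loci with most reads all had a ratio below 1, and 1 of them, the satellite locus level1_lnc-170, was past 2-fold. AT1G15405, which the authors class as a small RNA precursor and which has 2 copies in the genome, had 2548 reads (496 RPKM) in salt and 5481 (893 RPKM) in mannitol, a ratio of 0.556 (0.530 to 0.582), and it had been lower at 3 h too, at 0.403 (0.386 to 0.420). AT2G23672, a transposon-class locus opposite YCF37, a homologue of a Synechocystis gene for photosystem I assembly, had 380 in salt and 564 in mannitol, a ratio of 0.805 (0.705 to 0.919). When lncRNA reads other than those of AT1G15405 were made equal between the libraries, which adds 0.22 to every log2 ratio, the log2 difference of AT2G23672 shrank to -0.09. The other loci of this group belong to the snoRNA hosts and the satellite described below. Outside these 5, not every well-read locus was lower in salt. AT1G05562, opposite UGT75B1 and named after its values were seen, had 364 reads in salt and 274 in mannitol. Its ratio was 1.59 (1.35 to 1.86). None of the 384 annotated loci was 2-fold higher in salt and 7 were 2-fold lower, while the 978 loci that the authors predicted gave 36 higher and 56 lower, against 2.64% higher and 4.63% lower over all loci. Of the annotated loci, 59 reached 1 RPKM, and 11.9% of these were past 2-fold, against 42.3% over all loci that reached it. Loci from these 7 lower ones are named here after their values were seen. AT4G23205, next to the receptor kinase gene CRK12, and AT2G15128 had 0 reads in salt, with 20 and 9 reads in mannitol. AT3G12965, 133 bp from the seed maturation gene SMP1, had 34 in salt and 108 in mannitol, 2.66-fold lower (1.79 to 4.03), and AT1G58590 had 4 in salt and 38 in mannitol, 7.95-fold lower (2.86 to 30.7).

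Of 8 lncRNAs with a known role, 4 were in the tables. GUT15 (AT2G18440), an unstable noncoding transcript first studied for its rapid decay, had 83 reads in salt and 54 in mannitol, a ratio of 1.84 (1.29 to 2.64). At 3 h it had 57 in salt and 60 in mannitol, a ratio of 0.786 (0.538 to 1.15), and the 12 h ratio was 2.33 times the 3 h ratio (1.38 to 3.97). ASCO (AT1G67105), which binds nuclear splicing regulators and shifts alternative splicing in roots, had 12 reads in salt and 1 in mannitol, a ratio of 14.3 (2.12 to 613), at levels of 0.868 RPKM in salt and 0.0605 RPKM in mannitol. This is below the 2-fold line on the log2(RPKM + 1) scale, where its difference was 0.82. DRIR (AT1G21529), a lncRNA known to raise tolerance to drought and salt, had 2 reads in each library, too few to compare. ELENA1 (AT4G16355), which is known from immune signalling, had 0 reads in both libraries. Among 36 listed genes of osmotic and ion stress, such as SOS1, NHX1, RD29A and P5CS1, 1 had a lncRNA locus within 1000 bp, DREB2A, a transcription factor of drought and heat responses. Its neighbour level2_lnc-504 had 0 reads in salt and 3 in mannitol, so the tables hold almost no lncRNA beside these genes.

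Small nucleolar RNAs (snoRNAs) guide the chemical modification of ribosomal RNA and often lie in plants in clusters that are transcribed as 1 precursor. Of the 1362 loci, 11 contain an annotated snoRNA on their own strand, a group put together after values were seen, and all were read in both libraries. Their summed reads were 1243 in salt and 2214 in mannitol, or 70.7 and 105 RPM, a ratio of 0.671 (0.625 to 0.720), against 0.757 over all lncRNA reads. Of the 11, 1 was past 2-fold, level1_lnc-312, with 3 reads in salt and 24 in mannitol (6.69-fold lower, 2.03 to 34.7). That is 9.09% of the hosts against 7.27% of all loci. Of the 9 hosts that reached 1 RPKM, 11.1% were past 2-fold, against 42.3% of all loci that reached it. AT3G55485 had 340 in salt and 725 in mannitol, a ratio of 0.561 (0.491 to 0.638). For AT2G43375 the reads were 142 in salt and 354 in mannitol (0.479, 0.392 to 0.584), and for AT5G06165 they were 134 in salt and 245 in mannitol (0.654, 0.526 to 0.810). The read ratio of AT2G43375 was past 2-fold, but its difference on the log2(RPKM + 1) scale used for calls was -0.93. AT5G15022 had a ratio of 0.767 (0.587 to 0.999), and AT1G15002, with 44 in salt and 53 in mannitol, was nearest to equal (0.992, 0.650 to 1.51). AT2G46192, which spans a cluster of snoRNAs, had 433 in salt and 594 in mannitol, a ratio of 0.871 (0.768 to 0.988), and its log2 difference turned to 0.02 when lncRNA reads were made equal. At 3 h the same locus had been far apart, with 106 reads in salt and 1235 in mannitol, a ratio of 0.071 (0.0577 to 0.0867). Over the 11 hosts the ratio at 3 h was 0.281 (0.260 to 0.303), and 0.472 (0.432 to 0.517) without AT2G46192. Over all lncRNA reads the 3 h ratio was 0.611 (0.596 to 0.626). The hosts' level in salt was 27.8 RPM at 3 h and 70.7 at 12 h, while in mannitol it was 99.0 at 3 h and 105 at 12 h. All lncRNA reads were also higher at 12 h, with 366 RPM at 3 h and 591 at 12 h in salt, and 600 and 781 in mannitol. Without AT2G46192 salt had 24.4 RPM at 3 h and 46.0 at 12 h, and mannitol had 51.7 at 3 h and 77.1 at 12 h, so the even level in mannitol rested on that host.

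A set of 26 loci matches the repeated sequence of level1_lnc-170, and the authors list all of them as small RNA precursors. In 21 of them the best repeat period was 178 nt, the repeat length of the satellite that fills Arabidopsis centromeres. Of the 26, 25 had reads at 12 h. Transcripts of the centromeric satellite are normally scarce, because it lies in silent chromatin and is a source of small interfering RNAs. The set was put together after values were seen, from a match of at least 150 nt and 85% identity to level1_lnc-170. One repeat unit from 5 of the loci is shown to make plain how alike they are, each with its 178 nt in the sense of level2_lnc-413. Capitals mark bases that differ from the unit of level2_lnc-413, and the 4 other units differ at 8, 7, 11 and 9 positions in the order shown, which is 93.8 to 96.1% identity. The transcript of level2_lnc-414 runs the other way, and its unit is given as the reverse complement.
level2_lnc-413: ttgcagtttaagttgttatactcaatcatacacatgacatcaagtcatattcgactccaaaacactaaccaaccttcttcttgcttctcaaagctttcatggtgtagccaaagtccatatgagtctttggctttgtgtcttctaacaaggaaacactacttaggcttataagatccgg
level1_lnc-170: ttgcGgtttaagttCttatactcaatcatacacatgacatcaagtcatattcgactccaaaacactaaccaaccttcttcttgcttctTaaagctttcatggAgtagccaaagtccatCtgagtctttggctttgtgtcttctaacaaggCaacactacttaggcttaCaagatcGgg
level2_lnc-335: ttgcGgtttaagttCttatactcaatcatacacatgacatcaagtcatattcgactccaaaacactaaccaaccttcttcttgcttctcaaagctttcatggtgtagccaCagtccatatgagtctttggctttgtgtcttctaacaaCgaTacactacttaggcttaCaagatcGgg
level2_lnc-414: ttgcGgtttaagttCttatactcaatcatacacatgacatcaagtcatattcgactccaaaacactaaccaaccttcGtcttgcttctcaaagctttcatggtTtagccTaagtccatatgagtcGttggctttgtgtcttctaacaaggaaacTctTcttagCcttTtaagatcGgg
level2_lnc-416: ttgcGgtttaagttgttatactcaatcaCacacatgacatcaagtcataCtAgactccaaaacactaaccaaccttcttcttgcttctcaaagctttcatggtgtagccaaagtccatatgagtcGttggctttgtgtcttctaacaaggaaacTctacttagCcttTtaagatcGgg

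Summed over the 26 loci, salt 12 h had 570 reads and mannitol 12 h had 1123, or 32.4 and 53.4 RPM, a ratio of 0.607 (0.548 to 0.672). At 3 h the order was the other way, with 720 reads in salt and 457 in mannitol, a ratio of 1.30 (1.16 to 1.47). One locus, level1_lnc-170, held 177 of these reads in salt and 507 in mannitol at 12 h, and without it the ratios were 0.763 (0.670 to 0.867) at 12 h and 1.25 (1.07 to 1.46) at 3 h. Over all lncRNA reads the ratios were 0.757 at 12 h and 0.611 at 3 h, and without AT1G15405 they were 0.858 and 0.774. Without level1_lnc-170 the 12 h ratio of the set was thus near that of all lncRNA reads. Mannitol 12 h was the highest of the 9 libraries for the satellite. Cold 12 h had 44.4 RPM and heat 12 h 37.8, while the untreated 3 h control had 7.19 and the 4 treated 3 h libraries had 10.7 to 22.8. Salt had 22.8 RPM at 3 h and 32.4 at 12 h, and mannitol had 17.5 at 3 h and 53.4 at 12 h, and no untreated 12 h library was analysed here to set beside them.

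The 26 loci did not all lie on 1 side. Lower in salt were the neighbours level1_lnc-170 and level2_lnc-335 on chromosome 3, at 0.417 (0.350 to 0.496) and 0.396 (0.285 to 0.542), and level2_lnc-413 on chromosome 4, with 57 reads in salt and 164 in mannitol, at 0.415 (0.302 to 0.565). Higher in salt were level2_lnc-414, with 34 in salt and 16 in mannitol, a ratio of 2.54 (1.36 to 4.93), and level2_lnc-416, with 36 in salt and 7 in mannitol, a ratio of 6.15 (2.70 to 16.4). These last 3 loci lie within the same stretch of chromosome 4, and level2_lnc-413 and level2_lnc-414 overlap on opposite strands. In all, 2 of the 26 were at least 2-fold higher and 5 at least 2-fold lower, 26.9% of the set against 7.27% of all loci. A call needs about 1 RPKM, which 15 of the 26 reached, and of the loci that reached it 46.7% of the set and 42.3% of all loci were past 2-fold, so the set's share was near the background. A read from 1 unit can match many others, and the sources used here do not say how such reads were placed, so the sum is a measure of the repeat family and the split among loci is less certain.

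**Figure D3:**
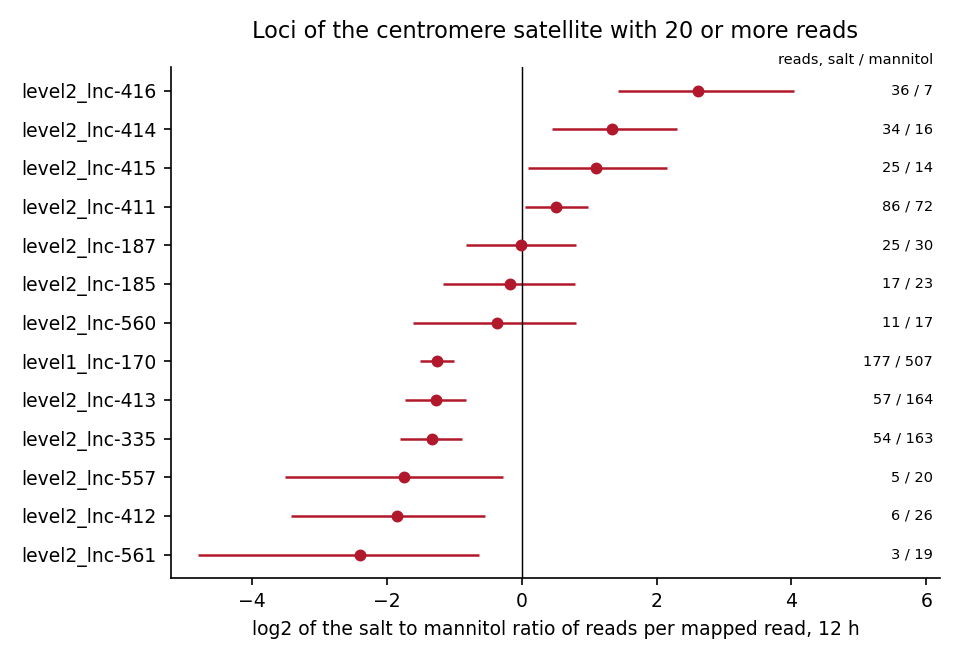
Ratio of salt 12 h to mannitol 12 h, in reads per mapped read on a log2 axis, for the 13 satellite loci with 20 or more reads; points are ratios and lines exact binomial 95% intervals of counting error, with reads in salt and in mannitol at the right. The intervals of 4 loci lie above a ratio of 1, those of 6 below it and those of 3 across it.

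By genomic class, as the authors assigned it, the shares past 2-fold are set against 2.64% higher and 4.63% lower over all loci. Antisense loci had 5 higher and 19 lower of 417, or 1.20% higher and 4.56% lower, so their lower share was at the background. The class named cis had 12 higher and 16 lower of 345, intergenic loci 11 and 15 of 274 (18 and 15 with no pseudocount and an interval that excludes 1, which turns the direction), and transposon loci (TE) 6 and 7 of 177. Small RNA precursors had 2 higher and 6 lower of 127, and of the 101 that are not satellite loci 1 was past 2-fold. Pseudogene loci had none of 22, and none of them reached 1 RPKM. In summed reads, antisense loci had a ratio of 0.845 (0.800 to 0.893) and cis loci 0.882 (0.831 to 0.936), against 0.737 (0.677 to 0.801) for transposon loci and 0.673 (0.649 to 0.698) for small RNA precursors, which hold AT1G15405. Among the predicted loci, those the authors mark as lacking a poly(A) tail had 8 higher and 11 lower of 111, those found in both forms 12 and 22 of 175, and those marked as polyadenylated 10 and 2 of 256. The last is the one group of these in which higher loci outnumbered lower ones. Its share of higher loci, 3.91%, was near the 3.91% of level 1 and 3.55% of level 2 predicted loci. Its share of lower loci was 0.78%, against 6.70% and 5.16%. Predicted loci with another mark, such as level2_lnc-148, are in none of these groups. No difference between classes was tested.

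**Figure D4:**
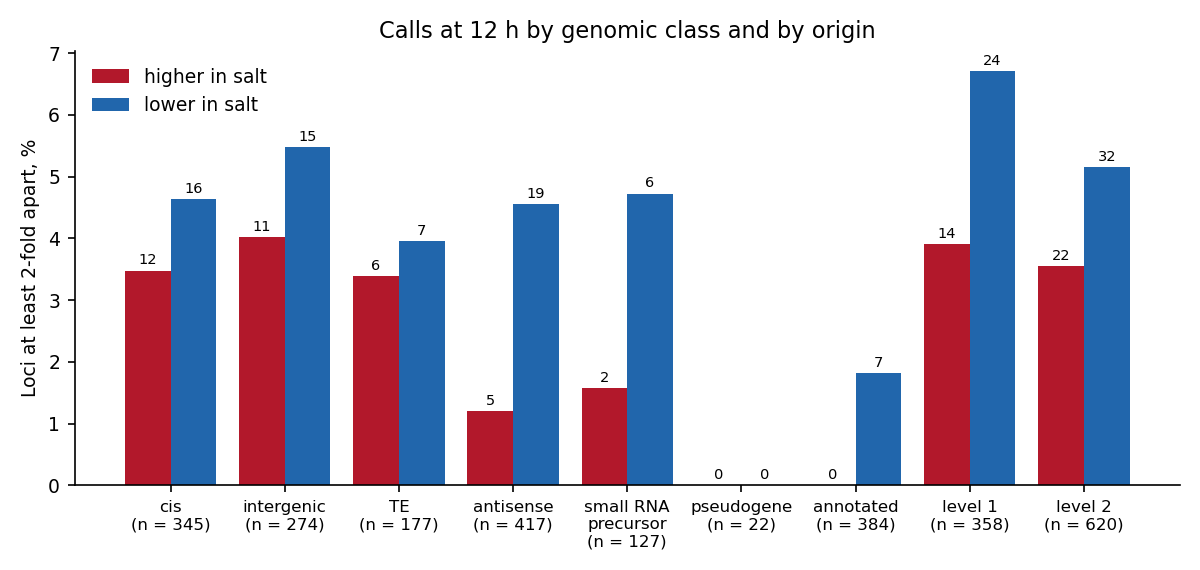
Percent of loci at least 2-fold higher (left bar) and at least 2-fold lower (right bar) in salt 12 h than in mannitol 12 h, by the authors' genomic class and by origin (annotated, or predicted at level 1 or level 2), with the number of loci over each bar. Lower loci outnumber higher ones in each group with any call, with 5 higher and 19 lower among antisense loci and 0 higher and 7 lower among annotated loci.

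The loci past 2-fold were short. Among predicted loci, exons had a median of 233 nt in the 36 higher loci, 235 nt in the 56 lower loci and 310 nt in the 83 others that reached 1 RPKM, and a locus of that length reaches 1 RPKM with few reads. Median GC content was 37.9% in the higher, 38.0% in the lower and 38.3% in the other loci. Conservation of DNA, given by the authors as a BLAST bit score, had a median of 126 in the higher, 140 in the lower and 131 in the other loci. For H3K4me3, a histone mark found at promoters in use, the authors' score was at a median of 1.04 in higher and 0.956 in lower loci, against 1.74 in the other loci and 0.669 in all 978.

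Few of the loci past 2-fold at 12 h were also past 2-fold in the same direction at 3 h. At 3 h, 26 loci were at least 2-fold higher and 26 at least 2-fold lower in salt than in mannitol, 1.91% of loci in each direction and 3.82% together, against 7.27% at 12 h. The 3 h libraries were deeper, with 31532630 mapped reads in salt and 26102116 in mannitol, against 17589634 and 21023041 at 12 h. The same few reads therefore give a larger RPKM at 12 h and pass 2-fold more easily. How much of the gap between the 2 times comes from depth was not tested. Of the 36 loci higher at 12 h, 3 were also 2-fold higher at 3 h, 2 were 2-fold lower and 15 had no read in either 3 h library. Of the 63 lower loci, 2 were also 2-fold lower at 3 h, 3 were 2-fold higher and 20 had no read at 3 h. By direction alone, 15 of the 21 higher loci whose values differed at 3 h were also higher in salt then. Among lower loci whose values differed at 3 h, 23 of 43 were also lower then. Over 160 loci with 10 or more reads in each pair of libraries, the 12 h and 3 h differences had Pearson's r = 0.16 and Spearman's rho = 0.18, as a description across loci, which share the 4 libraries and their depths. Among all 1362 loci, without that read minimum, the intervals of the ratio excluded 1 at both times for 42. Of these, 23 kept their direction and 19 had opposite directions, 9 of them lower and 10 higher in salt at 12 h.

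Loci that kept a lower value in salt at both times included AT1G15405, the snoRNA hosts AT3G55485, AT2G43375 and AT5G06165, and AT5G38212. Those higher at both times included level1_lnc-323, level1_lnc-335, and the satellite locus level2_lnc-416, which had 33 reads in salt and 3 in mannitol at 3 h. Of the loci given next for opposite directions, level1_lnc-260 and level1_lnc-277 were named after their values were seen. Directions were opposite at the 2 times at level1_lnc-260, on the strand of the PHD-finger gene AT5G12400. It had 3 reads in salt and 19 in mannitol at 12 h, but 18 in salt and 3 in mannitol at 3 h. Next to the calcium-sensing receptor gene CaS, level1_lnc-277 had 0 in salt and 9 in mannitol at 12 h, 9 in salt and 0 in mannitol at 3 h, and 0 in all 5 other libraries. Likewise level1_lnc-89 had 2 in salt and 28 in mannitol at 12 h, and 9 in salt and 0 in mannitol at 3 h.

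**Figure D5:**
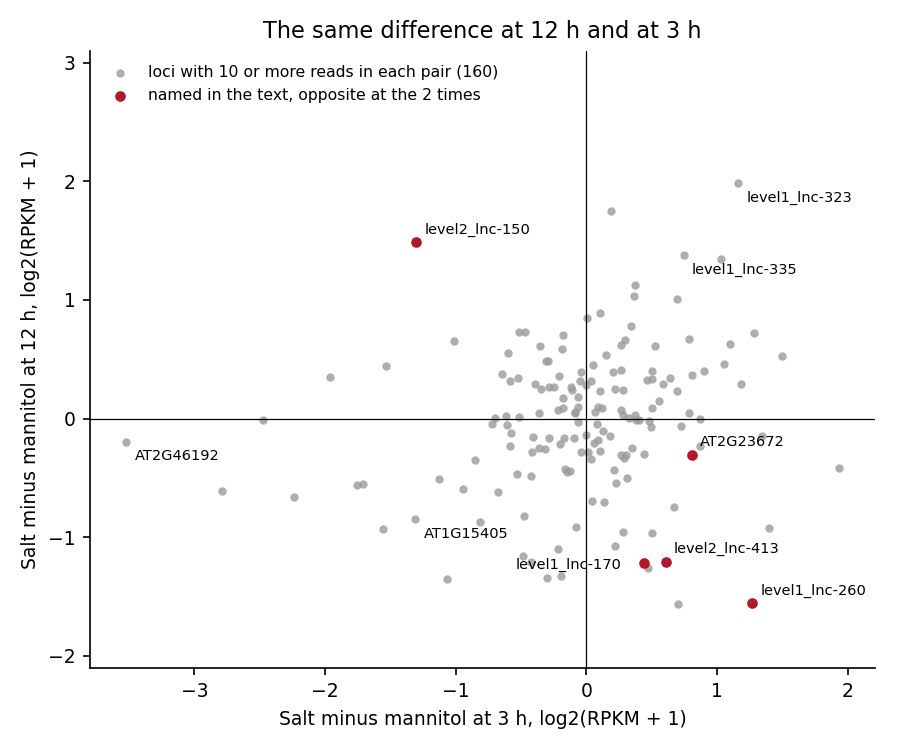
Salt minus mannitol difference in log2(RPKM + 1) at 12 h (vertical) against the same difference at 3 h (horizontal) for 160 loci with 10 or more reads in each pair of libraries. The points form no line (r = 0.16), and the loci in red changed sides, level2_lnc-150 at upper left and AT2G23672, level1_lnc-260, level1_lnc-170 and level2_lnc-413 at lower right.

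How far each treatment opened loci of its own was limited by depth. Reads were found at 590 loci in salt and 656 in mannitol, with 432 in common, 158 in salt alone and 224 in mannitol alone. Mannitol thinned to the mapped reads of salt would be read at 632 loci, still more than the 590. Most loci read in 1 library alone had few reads, with 6 of the 158 and 20 of the 224 at 10 reads or more. No read in any library other than these 2 was found for 5 of the 36 higher and 10 of the 63 lower loci.

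The authors' deposited table of stress-responsive predicted lncRNAs, made from these libraries against the control and thus no independent evidence, lists 10 loci lacking a poly(A) tail for salt and not for mannitol, 22 for mannitol and not for salt, and 6 for both. Of the first group, 7 were at least 2-fold higher in salt than in mannitol here and 0 lower, with 67 reads in salt and 8 in mannitol. Of the second, 0 were higher and 7 lower, with 10 reads in salt and 101 in mannitol. The 6 loci listed for both had no member past 2-fold.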

How the data were processed

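Seedling poly(A)- RNA was sequenced as 100-nt single reads. Per the submitters' processing notes, Bowtie 0.12.9, TopHat2 2.0.8 and Cufflinks were used with the TAIR10 genome; the sources used here do not give their settings. The values are RPKM, deposited by the authors per transcript. Conservation, histone and methylation values are scores deposited by the authors, as is a p-value of RNA folding, which was not used. Scores were read for predicted loci only.

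RPKM times exon length gave whole reads (tolerance 0.02) for 2790 of 2790 nonzero predicted values. The annotated RPKMs gave whole reads at 79 of 1922 values in the deposited row order and at 1922 of 1922 once assigned to loci sorted by the number after G in the locus ID, so that order was used. Transcripts of a locus (1464 in 1362 loci) were taken as 1. A further 24 columns of poly(A)+ values were not used.

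Calls were a 2-fold difference in log2(RPKM + 1). Read ratios have exact binomial 95% intervals, scaled to mapped reads. For bounds, a count of 0 was set to 3 reads per library and the nonzero count was taken as exact. No replicates exist, so there was no test, and nothing in the labels names separate cultures. Named loci were the 12 furthest up and 12 furthest down among calls whose interval excludes 1, the 5 with most reads, known lncRNAs, and loci near osmotic genes. All other named loci were chosen after their values were seen, also where this is not said at the locus. Loci and lists were chosen with earlier results of these data known. Names, neighbours and sequence come from RefSeq TAIR10.1, in which all 384 annotated loci overlapped the gene of the same name. Copies are matches of 90% identity over 80% of the longest exon (BLAST+ 2.17.0). Computation used Python 3.11.15, numpy 2.4.6, scipy 1.17.1 and pandas 2.3.3, and the intervals and calls were tested on simulated data. Alternatives were other pseudocounts, scalings, thresholds, read and length minimums and the deposited row order, and, added after seeing the data, leaving out loci of more than 1 copy or over same-strand coding exons. The sequence of 1 locus is not reported here.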

Additional observations from a re-analysis of the deposited data

Results flagged for a closer look

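For 7 of the loci named or called at 12 h, the salt to mannitol ratio ran in opposite directions at 12 h and at 3 h, with counting intervals that excluded 1 at both times. There was 1 library per treatment and time, so the change of direction was not tested, and chance among 1362 loci enters such a list. Over all 19 loci with such opposite directions, 9 were lower and 10 higher in salt at 12 h, so the 6 lower and 1 higher below are no sign of a common direction. The values below are salt minus mannitol in log2(RPKM + 1). Lower in salt at 12 h and higher at 3 h were level1_lnc-89 (-2.23 at 12 h and 1.22 at 3 h), level1_lnc-277 (-1.65 and 1.27), level1_lnc-260 (-1.55 and 1.27), the satellite loci level1_lnc-170 (-1.21 and 0.44) and level2_lnc-413 (-1.20 and 0.61), and AT2G23672 (-0.30 and 0.81). As given above, the 12 h difference of AT2G23672 shrank toward equality when lncRNA reads other than those of AT1G15405 were made equal. Higher in salt at 12 h and lower at 3 h was level2_lnc-150 (1.49 at 12 h and -1.30 at 3 h). The summed reads of the 26 satellite loci likewise had a salt to mannitol ratio of 0.607 at 12 h and 1.30 at 3 h. Over all lncRNA reads the ratio was 0.757 at 12 h and 0.611 at 3 h.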

How the results depend on the processing

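No paired analysis was possible because each treatment has 1 library at 12 h, and for the same reason no library could be left out in turn. The counts of loci past 2-fold, 36 higher and 63 lower in salt, depended on how low values were treated. With a pseudocount of 0.1 RPKM they were 209 higher and 279 lower, and with no pseudocount and an interval that excludes 1 they were 60 higher and 79 lower. A minimum of 10 reads over the 2 libraries left 20 higher and 40 lower, and a 4-fold threshold 3 and 6, each by construction. Lower loci outnumbered higher ones under all 10 alternatives, with the higher share between 30.9% and 43.2%. Rescaling by the median ratio gave 29 higher and 65 lower, and equal lncRNA reads without AT1G15405 gave 44 and 59. The annotated values in the deposited order gave the same totals with 56 of the 63 lower loci shared. All 25 named loci past 2-fold stayed so under the other pseudocount, both scalings and the deposited order, and none of these 25 changed sign. With 3 reads as the minimum, 357 loci in salt and 442 in mannitol were detected. The median log2 ratio over loci read in both libraries was between 0.09 and 0.34. Depth limits the rest: 70 of the 99 loci past 2-fold had under 20 reads, and repeated treatments could differ by more than counting error.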
